A study of Mus musculus with 12 samples.

Results

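Cisplatin (CDDP), a platinum drug that crosslinks DNA and injures the heart as a side effect, was given to mice that lack STING, and its effect on the heart was followed across all genes. The comparison used 6 of the 12 hearts of the series, chosen by genotype and treatment in the sample labels: 3 from STING-/- mice without cisplatin (the STING-/- group) and 3 from STING-/- mice with it (the STING-/-+CDDP group). All the mice were male and 8 weeks old, of the strain C57BL/6 in the labels and C57BL/6J in the methods of the study. The drug was given into the peritoneum on days 1, 8 and 15, each dose 6 mg/kg, and hearts were taken on day 22. The labels call the hearts without the drug untreated, and whether the STING-/- mice without cisplatin received saline was not given in the sources used here. STING-/- mice, labelled Tmem173-/- after the older name of Sting1, carry the knockout in the germline, so every heart compared here has it in cardiomyocytes and in immune cells alike, whether or not the mouse received cisplatin. The other 6 hearts, 3 from wild-type mice without cisplatin (Saline) and 3 with it (CDDP), had the same doses and days. The wild-type mice came from another supplier than the knockout mice, so that genotype and colony cannot be told apart where the genotypes are compared. Whole cardiac tissue was sequenced, and the comparison asks which genes answer cisplatin when STING cannot take part.

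STING is an adaptor on the endoplasmic reticulum that is activated when the enzyme cGAS finds DNA in the cytosol. It recruits the kinase TBK1, which phosphorylates IRF3 for the transcription of type I interferon, and it also feeds NF-kB and the inflammatory genes NF-kB drives. Interferon in turn acts through a complex that contains IRF9 and binds GAAA repeats in the promoters of antiviral genes. Resident macrophages, some of which carry MHC class II molecules, are the most numerous immune cells of the healthy heart.

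Expression was given in TPM, the reads on a gene divided by its length and scaled so that every heart sums to the same total. TPM keep no record of read number, and the sequencing depth is therefore not known. The number of genes above 0 ranged from 19680 to 20974 over the 6 hearts. Expression was compared as log2(TPM + 1), a scale that makes the fold change of a gene with low TPM smaller than it is. Each fold change below is the difference of group means on this scale with its standard error (SE), from a model of all 12 hearts fitted with limma, and a gene was called when its two-sided p-value, adjusted by the Benjamini-Hochberg method over 13815 tested genes, was under 0.05. The p-values measure the spread between separate animals, and an exact permutation test of 3 hearts against 3 cannot go below 0.10.

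Sting1 transcript was still counted in the knockout. Its level was 3.82, 5.96 and 2.87 TPM in the STING-/- hearts and 4.26, 4.67 and 3.37 TPM in the STING-/-+CDDP hearts, against 12.3, 6.59 and 6.50 TPM in the Saline hearts. The knockout hearts were all below the Saline hearts, and cisplatin made no difference that could be measured (exact permutation p = 1.0). Which part of the gene the knockout removes was not given in the sources used here, and a gene-level TPM does not show where the remaining reads lie, so it is no check on the protein.

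The tissue carried the transcripts of heart muscle. Myh6, the fast myosin heavy chain of the mouse heart, was at 5676, 6565 and 11098 TPM in the STING-/- hearts and 6480, 7130 and 6247 TPM in the STING-/-+CDDP hearts. The 8 cardiomyocyte markers had a median fold change of -0.14 (relative -0.03) and no call. Atrial transcripts differed among hearts of the same group. Nppa, the atrial natriuretic peptide, was at 2042, 8597 and 5623 TPM in the STING-/- hearts and 5419, 486 and 210 TPM in the STING-/-+CDDP hearts. Summed over 17 atrial genes, of which Nppa was the most abundant, the level was 3241, 13340 and 9454 TPM without cisplatin and 9463, 1054 and 433 TPM with it, so that STING-/-+CDDP hearts 2 and 3 held little atrial transcript and heart 1 as much as the controls. None of the 16 tested atrial genes was called. The part of atrial tissue in the results below was not tested. None of the 6 lung epithelial markers passed the filter on low values.

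Cisplatin changed few genes past the threshold in STING-/- hearts, and most of those fell. Of 13815 genes, 129 (0.934%) were called, 35 higher (0.253%) and 94 lower (0.68%), with fold changes from -3.09 to 2.09. The 2 groups did not overlap in TPM for 3346 genes (24.2%), 1006 higher and 2340 lower with cisplatin, and all 129 called genes were among them. Without adjustment 1860 genes had a p-value under 0.05, 507 of them higher. Among the called genes 114 were protein coding and 107 moved by at least 1 on the log2 scale.

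The balance of rises and falls depended on how the hearts were scaled against each other. The median fold change of all tested genes was -0.107 as deposited and 0.007 after scaling by the median of ratios, and medians of the STING-/- comparison over lists are therefore also given relative to the deposited median of all genes, in brackets where no words say so. As deposited, 27.1% of the called genes were higher. The share was 50.8% (127 of 250) with median of ratios, 55.9% (166 of 297) with quantile normalization, 37% (85 of 230) without the 10 most abundant genes and 35.9% (69 of 192) without mitochondrially encoded genes. Of the 129 genes, 120 were also called with median of ratios and 117 with quantile normalization.

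The count rested on every one of the 6 hearts. It was 15, 25 and 30 without STING-/- heart 1, 2 or 3, and 23, 48 and 27 without STING-/-+CDDP heart 1, 2 or 3. It was 203 without the first wild-type CDDP heart, which enters only through the shared estimate of the spread. All 129 genes kept their direction in these 6 omissions, and their fold changes stayed between 0.78 and 1.22 times the full value. The adjusted p stayed under 0.05 in all 6 omissions for 12 genes, among them Fah, Dcxr, Gnmt and Hsd11b1, which rose, and Irf7, Ifi27, Cd74, Clec7a, Ighm, Fhit and Gm16534, which fell. For every other called gene named below, the adjusted p passed 0.05 without at least 1 of the 6 hearts.

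**Figure D1:**
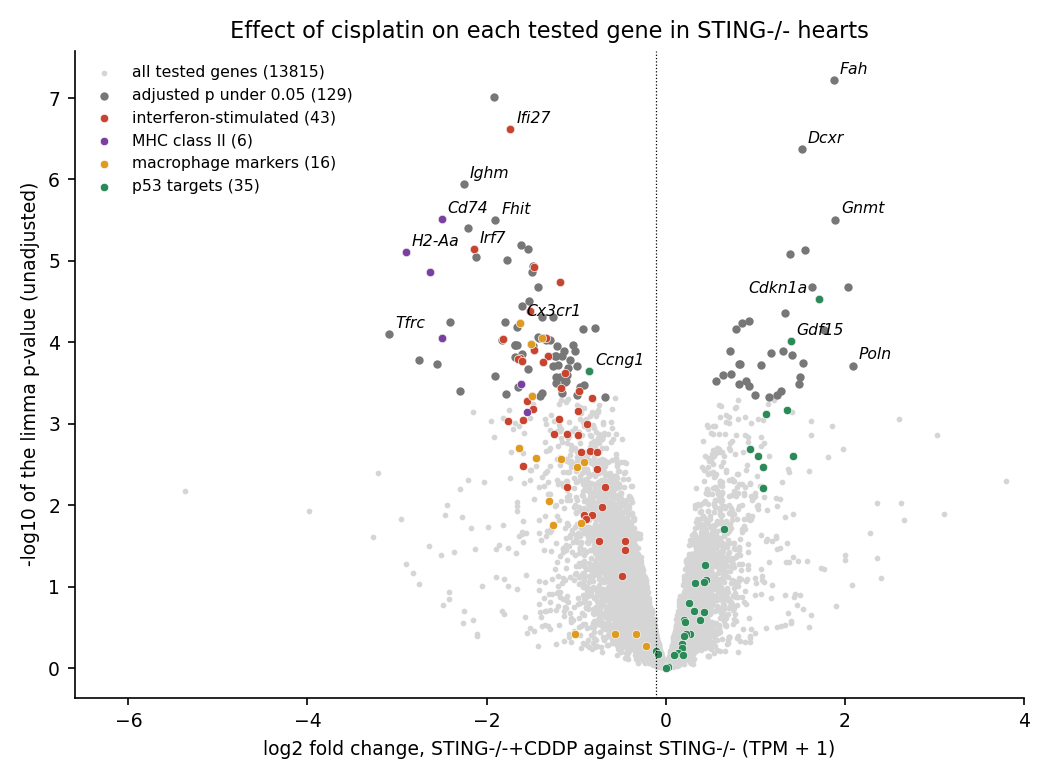
Log2 fold change of each of the 13815 tested genes in STING-/-+CDDP against STING-/- hearts (x axis) and -log10 of its unadjusted limma p-value (y axis), with the other called genes in dark grey and 4 gene lists in colour, called or not. The dotted line marks the median of all genes at -0.107. Interferon-stimulated, MHC class II and macrophage genes lie on the left, p53 targets mostly on the right.

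Interferon-stimulated genes were lower with cisplatin nearly throughout. Of 43 tested genes of this kind, 42 were lower with cisplatin, 16 were called lower and none higher, and the groups did not overlap for 40. Their median fold change was -1.12, or -1.01 relative to all genes, against -1.01 in wild-type hearts, where 29 were called. In each STING-/-+CDDP heart the list stood lower than in any STING-/- heart, at -0.999, -1.07 and -1.44 from the STING-/- mean against 0.30, -0.14 and -0.15. The number called was 2, 3 and 5 without STING-/- heart 1, 2 or 3 and 3, 5 and 3 without STING-/-+CDDP heart 1, 2 or 3.

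The promoters of 4 of the called genes are shown because they carry the element that interferon factors bind. Each is the 250 bases before the start of the gene in RefSeq on GRCm38.p6, read 5′ to 3′ on the strand of the gene, and capitals mark each match to GAAANNGAA on either strand, overlapping matches included. They lie at chr4:156200819-156201068 (minus strand) for Isg15, chr19:34640639-34640888 (plus) for Ifit1, chr8:71537473-71537722 (minus) for Bst2 and chr5:120777660-120777909 (minus) for Oas3.
Isg15: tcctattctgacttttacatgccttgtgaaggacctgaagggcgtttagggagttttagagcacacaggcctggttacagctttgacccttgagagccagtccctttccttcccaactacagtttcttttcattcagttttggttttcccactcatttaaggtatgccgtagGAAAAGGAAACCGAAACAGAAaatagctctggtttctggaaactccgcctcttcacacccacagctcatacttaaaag
Ifit1: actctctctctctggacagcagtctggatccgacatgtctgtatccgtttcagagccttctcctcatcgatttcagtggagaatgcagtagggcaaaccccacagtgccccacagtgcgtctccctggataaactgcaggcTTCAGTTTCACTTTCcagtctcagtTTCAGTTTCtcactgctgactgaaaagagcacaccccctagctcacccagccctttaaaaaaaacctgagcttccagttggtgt
Bst2: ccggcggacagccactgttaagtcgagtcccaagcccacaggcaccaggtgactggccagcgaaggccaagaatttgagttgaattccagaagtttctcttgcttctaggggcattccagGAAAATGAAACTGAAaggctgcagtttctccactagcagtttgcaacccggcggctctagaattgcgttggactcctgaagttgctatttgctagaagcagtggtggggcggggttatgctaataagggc
Oas3: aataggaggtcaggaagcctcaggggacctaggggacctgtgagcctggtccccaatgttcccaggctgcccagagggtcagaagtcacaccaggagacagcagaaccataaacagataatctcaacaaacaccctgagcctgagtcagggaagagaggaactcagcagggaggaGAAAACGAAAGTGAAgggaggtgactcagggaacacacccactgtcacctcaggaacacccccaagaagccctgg
Matches numbered 3, 3, 2 and 2 in this order and lay within 130 bases of the start. Over the 300 bases from 250 before to 50 after the start, the element was found in 9 of 12 called interferon-stimulated genes with a promoter in the table (75%), in 17 of 31 tested ones (54.8%), in 13 of the 57 other genes called lower (22.8%), in 3 of 22 called higher (13.6%) and in 901 of all 10152 (8.88%). Of the other motifs searched on both strands, the AP-1 element TGANTCA was in 10 of 69 promoters of genes called lower (14.5%) and 6.25% of all, the ATF4 element TGATGNAA in 5 (7.25%) and 2.72%, the heat shock element GAANNTTC in 8 (11.6%) and 7.11%, and the NF-kB element GGNNNTTCC in 19 (27.5%) and 25.4%. The E-box CACGTG was in 4 (5.8%) against 11.8% of all, the cAMP response element TGACGTCA in 1 (1.45%) against 3.33% and the D-box TTANGTAA in 1 (1.45%) against 1.84%. Of the 22 promoters of genes called higher, these 7 motifs were in 1, 0, 3, 4, 2, 0 and 0. A match is a run of letters and was not tested as a binding site.

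The called genes covered the sensors, the transcription factors and the effectors of the response. Irf7, the factor that amplifies interferon production, was at 93.4, 59.6 and 50.6 TPM in the STING-/- hearts and 15.9, 14.4 and 12.2 TPM in the STING-/-+CDDP hearts. The lowest control heart was more than 3 times above the highest treated one, and the fold change was -2.14 (SE 0.28, adjusted p = 0.00753). Irf9, the DNA-binding subunit of the interferon-activated complex, was at 30.2, 22.1 and 24.0 TPM without and 10.8, 11.03 and 9.90 TPM with cisplatin (fold change -1.18, SE 0.17, adjusted p = 0.0114). For both genes every treated heart was below every control.

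Among effectors, Isg15, a ubiquitin-like modifier, was at 66.2, 40.6 and 34.2 TPM without and 18.4, 13.3 and 11.1 TPM with cisplatin (fold change -1.63, SE 0.30, adjusted p = 0.0278). Ifit1, which binds viral RNA that lacks a methylated cap, was at 20.2, 11.5 and 12.1 TPM and fell to 4.86, 3.70 and 3.11 TPM (fold change -1.65, SE 0.30, adjusted p = 0.0286). Bst2, the tetherin that holds virions at the membrane, was at 154, 104 and 109 TPM against 52.0, 41.2 and 36.5 TPM (fold change -1.47, SE 0.26, adjusted p = 0.0267). In these 3 genes the first STING-/- heart was the highest, and the treated hearts all lay below the lowest control.

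Ifi27, a mitochondrial interferon-induced protein, had the lowest adjusted p of the list, with 191, 222 and 185 TPM without and 66.4, 64.5 and 47.6 TPM with cisplatin (fold change -1.74, SE 0.16, adjusted p = 0.0011). The oligoadenylate synthetases, which activate the RNA-degrading RNase L, included Oas1a at 15.3, 12.6 and 9.40 TPM against 3.40, 2.83 and 2.15 TPM (fold change -1.81, SE 0.31, adjusted p = 0.024). Oas3 went from 1.59, 1.62 and 1.19 TPM to 0.17, 0.19 and 0.04 TPM (fold change -1.12, SE 0.21, adjusted p = 0.0353). In wild-type hearts Oas3 changed by -0.32 (adjusted p = 0.326) and the difference between genotypes had an unadjusted p of 0.022. The values of Oas1a and Oas1g, and of Ifit3 and Ifit3b, are uncertain because near-identical copies share reads.

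Of the interferon genes looked at, Ifnb1 and Ifna4 were listed at 0 in all 6 hearts, and Ifng at 0.05 TPM in 1 STING-/- heart and 0 in the others. A listed 0 does not show absence, since 2 of 13 mitochondrially encoded genes were also at 0 in every heart. The receptor subunits did not differ beyond the spread. Ifnar1 was at 11.4, 14.1 and 10.3 TPM without and 11.1, 11.8 and 8.76 TPM with cisplatin, and Ifnar2 at 31.5, 39.4 and 25.5 TPM against 28.3, 29.9 and 23.3 TPM. Of 14 tested genes of the cGAS-STING pathway, Irf7 and Zbp1 were called lower and none higher, and the median was -0.22 (relative -0.11). Zbp1, a sensor of left-handed nucleic acid that can trigger necroptosis, was at 13.7, 15.1 and 10.8 TPM against 4.77, 3.05 and 2.61 TPM (fold change -1.68, SE 0.29, adjusted p = 0.0248). All 16 tested interferon-inducible GTPases were lower, with a median of -1.19 (relative -1.09), and 1 was called: Gbp3, a guanylate-binding protein that acts on membranes around microbes, at 24.8, 12.7 and 16.96 TPM against 6.53, 4.63 and 3.55 TPM (fold change -1.68, SE 0.30, adjusted p = 0.0278).

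**Figure D2:**
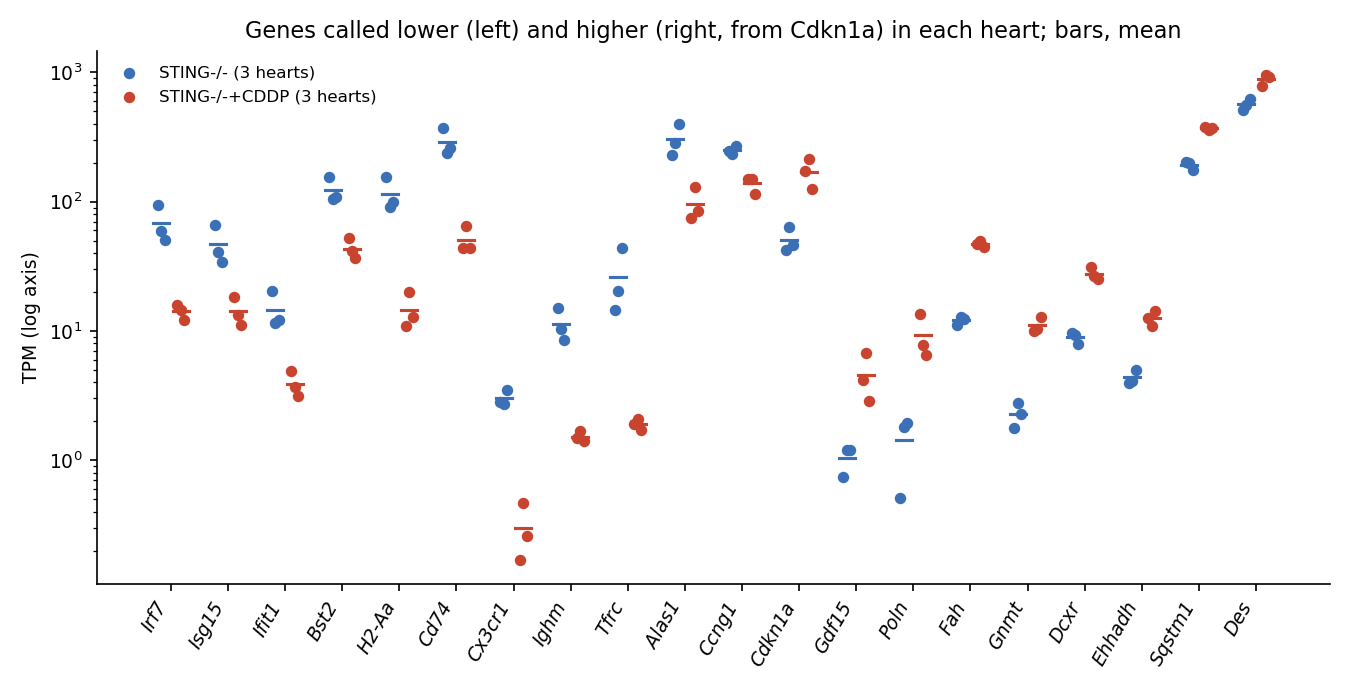
TPM (log axis) of 20 called genes in each of the 3 STING-/- hearts (blue) and 3 STING-/-+CDDP hearts (red), with the group mean as a bar. The groups do not overlap for any of the 20 genes. Genes called lower stand on the left and genes called higher, from Cdkn1a on, on the right.

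MHC class II genes, which present peptides on macrophages, dendritic cells and B cells, had the lowest median of the 56 lists examined. All 6 tested members were lower without overlap, 5 were called, and the median was -2.50, or -2.39 relative to all genes, against -2.65 in wild-type hearts. H2-Aa, an alpha chain, was at 155, 90.8 and 99.5 TPM in the STING-/- hearts and 10.98, 19.9 and 12.7 TPM in the STING-/-+CDDP hearts (fold change -2.91, SE 0.38, adjusted p = 0.00753). Its partner H2-Ab1 was at 147, 81.2 and 92.4 TPM against 15.0, 23.1 and 15.3 TPM (fold change -2.50, SE 0.43, adjusted p = 0.024). The beta chain H2-Eb1 was at 153, 78.8 and 97.1 TPM against 11.7, 24.5 and 14.7 TPM (fold change -2.63, SE 0.37, adjusted p = 0.00901). In all 3 the second treated heart was the highest of its group, and the lowest control was still more than 3 times above it.

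Cd74, the invariant chain that guides class II molecules to the endosome, was the most abundant gene of the list, at 374, 240 and 260 TPM without and 43.4, 64.3 and 43.7 TPM with cisplatin (fold change -2.50, SE 0.30, adjusted p = 0.00543). H2-DMb1, which helps to load the peptide, fell from 11.1, 9.06 and 6.65 TPM to 1.47, 2.95 and 2.30 TPM (fold change -1.62, SE 0.32, adjusted p = 0.0405). Ciita, the master activator of class II transcription, was below the filter at 1.05, 0.95 and 0.84 TPM against 0.05, 0.36 and 0.05 TPM (exact permutation p = 0.1, the smallest possible). Summed over the 10 listed genes, the level was 855, 512 and 565 TPM without cisplatin and 85.8, 139 and 90.9 TPM with it. The number of genes called was 1, 3 and 3 without STING-/- heart 1, 2 or 3 and 2, 3 and 2 without STING-/-+CDDP heart 1, 2 or 3.

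MHC class I genes, carried by nearly all cells, were lower by less. All 17 tested genes of class I and the immunoproteasome were lower, 14 without overlap, with a median of -0.76 (relative -0.66). B2m, the light chain of every class I molecule, was the 1 called, at 1644, 1623 and 1232 TPM against 760, 886 and 588 TPM (fold change -1.02, SE 0.18, adjusted p = 0.0267).

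Macrophage markers were lower as well. All 16 were lower, 13 without overlap and 4 called, with a median of -1.21 (relative -1.11) in STING-/- hearts and -1.25 in wild-type hearts. Their summed level was 1572, 1312 and 1017 TPM without and 709, 883 and 417 TPM with cisplatin, and no marker was at 0 in any heart. Csf1r, the growth factor receptor of macrophages, had a fold change of -1.45 (adjusted p = 0.109) and Cd68, a lysosomal marker, of -0.21. The number called was 0 without any 1 of the 3 STING-/- hearts, and 1, 2 and 0 without STING-/-+CDDP heart 1, 2 or 3. In whole tissue, fewer cells of a type and less RNA per cell cannot be told apart.

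Cx3cr1, the fractalkine receptor, was at 2.83, 2.70 and 3.5 TPM in the STING-/- hearts and 0.17, 0.47 and 0.26 TPM in the STING-/-+CDDP hearts (fold change -1.63, SE 0.26, adjusted p = 0.0217). Mrc1, the mannose receptor of resident macrophages, was at 19.7, 19.3 and 13.8 TPM against 7.07, 6.80 and 3.37 TPM (fold change -1.5, SE 0.26, adjusted p = 0.0248). Timd4, a receptor for apoptotic cells, was at 5.32, 4.83 and 5.57 TPM against 1.19, 1.32 and 1.15 TPM (fold change -1.49, SE 0.31, adjusted p = 0.0498), and Fcgr1, a high-affinity antibody receptor, had a fold change of -1.39 (SE 0.24, adjusted p = 0.024). Lyz2, the most abundant macrophage marker, was at 706, 565 and 417 TPM against 283, 402 and 176 TPM and was not called (adjusted p = 0.738). It reached at most 2.45 TPM in 5 of the 6 wild-type hearts and 83.5 TPM in the other, and the SE of its fold change was 1.10.

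Myeloid genes outside the marker list were among the largest falls. Mgl2, a lectin of macrophages and dendritic cells, was at 18.3, 18.5 and 14.4 TPM without and 2.51, 3.21 and 1.61 TPM with cisplatin (fold change -2.41, SE 0.39, adjusted p = 0.0217). Ly86, which binds a Toll-like receptor relative on B cells and macrophages, was at 16.2, 10.8 and 10.1 TPM against 2.18, 3.15 and 1.10 TPM (fold change -2.12, SE 0.28, adjusted p = 0.00772). Clec7a, the beta-glucan receptor Dectin-1, went from 8.54, 5.76 and 5.09 TPM to 0.25, 1.05 and 0.57 TPM (fold change -2.20, SE 0.27, adjusted p = 0.0061). The annotation classes Clec7a as a polymorphic pseudogene. Cybb, Clec10a and Tlr7, which were chosen after their values were seen, were called with fold changes of -1.61, -1.66 and -1.83.

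Retnla, Ms4a4c and Ccl8 had larger fold changes in STING-/- than in wild-type hearts, but in none did the difference between genotypes pass the adjustment over all genes. Retnla, a marker of alternatively activated macrophages, was at 60.8, 34.5 and 54.7 TPM without and 4.82, 8.95 and 5.81 TPM with cisplatin (fold change -2.76, SE 0.50, adjusted p = 0.0286). In wild-type hearts its fold change was -0.97 (adjusted p = 0.203), and the interaction had an unadjusted p of 0.0279. Ms4a4c, a membrane protein of myeloid cells, went from 13.5, 5.73 and 9.55 TPM to 0.67, 0.26 and 1.44 TPM (fold change -2.55, SE 0.47, adjusted p = 0.0299), with -0.84 in wild-type hearts and an interaction p of 0.0258. Ccl8, a monocyte chemokine, went from 16.4, 24.9 and 8.33 TPM to 4.23, 1.48 and 1.76 TPM (fold change -2.29, SE 0.47, adjusted p = 0.0458), with -1.14 in wild-type hearts and an interaction p of 0.107.

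Markers of lymphocytes were few. The 6 tested T and NK cell markers were all lower with a median of -0.89 (relative -0.78) and none called. Of 10 listed B and plasma cell markers 3 were tested, all 3 were lower without overlap and 1 was called, with a median of -1.98 (relative -1.88) against 0.98 in wild-type hearts. Ighm, the constant region of IgM, was at 15.1, 10.4 and 8.47 TPM without and 1.48, 1.68 and 1.41 TPM with cisplatin, with treated hearts closer to each other than the controls (fold change -2.26, SE 0.24, adjusted p = 0.00316). Igkc, the kappa light chain, was at 18.1, 15.2 and 15.8 TPM against 11.1, 0.77 and 2.93 TPM (fold change -1.98, SE 0.72, adjusted p = 0.251). In wild-type hearts the 3 tested B and plasma cell markers went both ways. Ighm was called lower there too (fold change -3.15, adjusted p = 0.000114), while Igkc (1.74) and Jchain (0.98) were higher without a call. Of the 7 tested neutrophil markers 5 were higher and 2 lower, with the largest fall in Csf3r (fold change -0.75). They had a median of 0.84 (relative 0.94), no call and no member whose groups did not overlap, and 1 control heart stood apart in them. Lcn2, the neutrophil and stress gene, was at 24.9, 142 and 25.6 TPM in the STING-/- hearts and 183, 166 and 126 TPM in the STING-/-+CDDP hearts (fold change 1.77, SE 0.85, adjusted p = 0.393). S100a8 was at 3.68, 22.4 and 0.51 TPM against 15.0, 11.4 and 12.3 TPM. The second STING-/- heart was as high as the treated hearts in both.

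**Figure D3:**
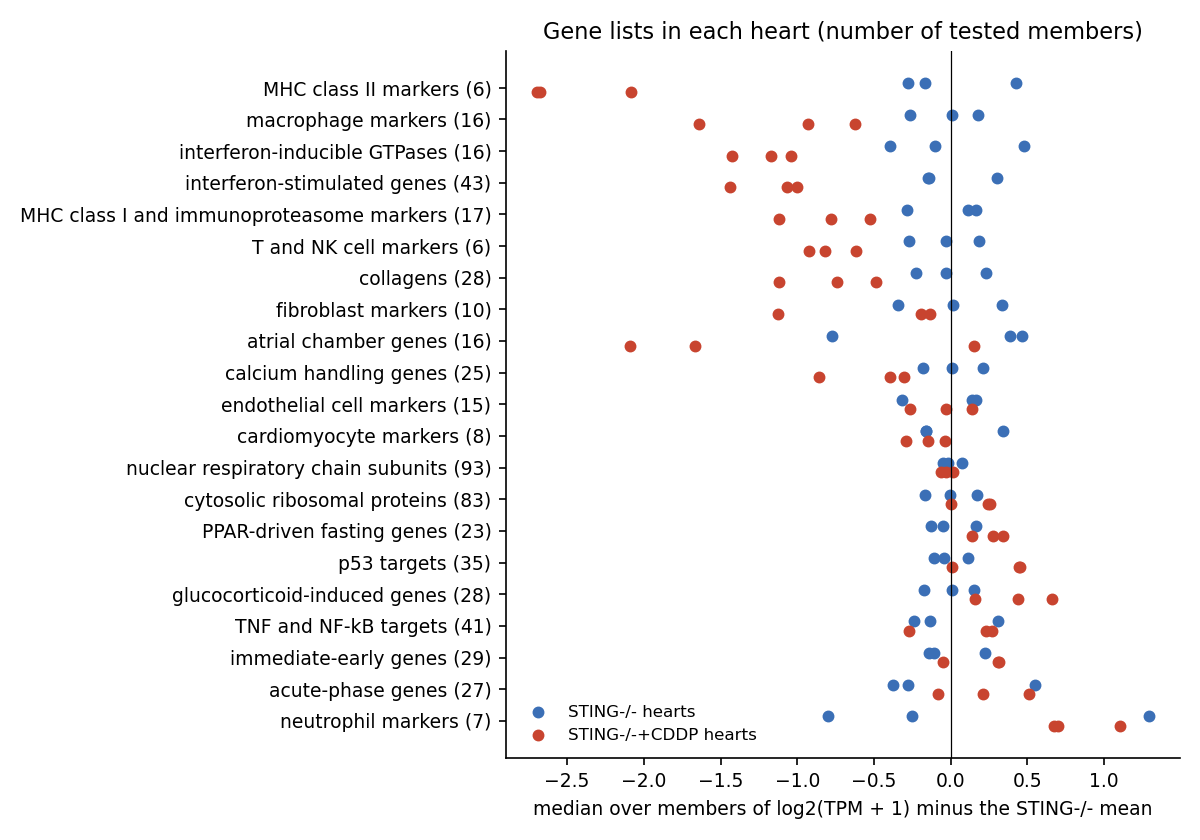
Median over the tested members of each gene list (rows, number of members in brackets) of log2(TPM + 1) minus the mean of the 3 STING-/- hearts, in each STING-/- heart (blue) and each STING-/-+CDDP heart (red). MHC class II, macrophage and interferon lists lie left of 0 in every treated heart, and the spread of the atrial and neutrophil lists among hearts of 1 group is as wide as the gap between groups.

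In a list of targets of p53, the factor that answers DNA damage, most genes were higher with cisplatin. Of 35 tested targets, 32 were higher, 2 were called higher and 1 lower, with a median of 0.28, or 0.38 relative to all genes, against 0.48 in wild-type hearts. The KEGG p53 signaling pathway of the deposited annotation did not share this direction: of its 65 tested genes 30 were higher and 35 lower, 1 was called higher and 2 lower, and the median was -0.08 (relative 0.03) against 0.16 in wild-type hearts. The 2 called lower were Ccng1, given below, and Gm10053, a copy of a cytochrome c gene that is uncertain in identity. Cdkn1a, which encodes the cell cycle inhibitor p21, was at 42.3, 63.3 and 46.3 TPM in the STING-/- hearts and 172, 216 and 124 TPM in the STING-/-+CDDP hearts (fold change 1.72, SE 0.26, adjusted p = 0.0156). Gdf15, a stress hormone that suppresses appetite, was at 0.74, 1.19 and 1.2 TPM against 4.15, 6.69 and 2.85 TPM (fold change 1.39, SE 0.24, adjusted p = 0.024). For both genes every treated heart was above every control, and the second treated heart was the highest. Over the list the treated hearts stood at 0.44, 0.46 and 0.01 from the STING-/- mean, so heart 3 lay within the range of the controls, and it had the lowest median of ratios of the 6 (0.803 against 0.978 to 1.144). Without STING-/- heart 1, 2 or 3 the number called higher was 0, 1 and 0, without STING-/-+CDDP heart 1, 2 or 3 it was 0, 0 and 2, and without the first wild-type CDDP heart it was 4.

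Several further targets were apart without passing the adjustment. Phlda3, which restrains AKT, was at 16.6, 26.7 and 15.5 TPM without and 56.4, 74.4 and 34.9 TPM with cisplatin (fold change 1.42, adjusted p = 0.107). Bax, the effector of mitochondrial apoptosis, was at 27.0, 33.7 and 24.9 TPM against 61.4, 62.8 and 43.5 TPM (fold change 0.94, adjusted p = 0.0974). Mdm2, which degrades p53, was at 20.4, 24.6 and 27.4 TPM against 29.96, 31.5 and 18.0 TPM, with groups that overlapped. Ccng1, a cyclin and p53 target, moved against the list, from 247, 232 and 271 TPM to 151, 151 and 115 TPM (fold change -0.85, SE 0.16, adjusted p = 0.0333), and was lower in wild-type hearts too (-1.04).

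Of 31 tested genes of DNA repair and lesion bypass none was called, and the median was 0.02 (relative 0.13). A DNA polymerase outside that list gave the largest called rise of any gene. Poln, polymerase nu, which can copy past interstrand crosslinks, was at 0.51, 1.81 and 1.94 TPM in the STING-/- hearts and 13.6, 7.72 and 6.52 TPM in the STING-/-+CDDP hearts (fold change 2.09, SE 0.39, adjusted p = 0.0301). It rose in wild-type hearts as well (1.35, adjusted p = 0.0335). Pdcd5, a nuclear protein linked to apoptosis, was higher by a small amount, at 105, 112 and 96.8 TPM against 169, 145 and 152 TPM (fold change 0.56, SE 0.11, adjusted p = 0.0391).

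Genes that stretch over long distances of chromosome were lower with cisplatin, in order of their length. The 12342 tested protein-coding genes were divided by the distance from start to end in GENCODE M21, after the first results had been seen, and no test was run on the division. The median fold change was -0.04 for 2965 genes of up to 10 kb, -0.08 from 10 to 30 kb, -0.15 from 30 to 100 kb, -0.23 from 100 to 200 kb, -0.30 from 200 to 300 kb, -0.36 from 300 to 500 kb and -0.45 for 111 genes over 500 kb. Of the last, 104 were lower (93.7%), against 55.3% of the shortest. Lower without overlap were 60 of the longest (54.1%), against 416 of the shortest (14%). The step from the shortest to the longest class was -0.40, -0.40 and -0.45 in the 3 STING-/-+CDDP hearts and -0.03, -0.06 and 0.08 in the STING-/- hearts, each taken from the STING-/- mean. Wild-type hearts, taken from the Saline mean, gave -0.70, -0.35 and -0.42 with cisplatin, while the Saline hearts gave -0.03, 0.05 and -0.05. Longer genes also had longer transcripts, with medians of 1631 bases in the shortest class and 4824 in the longest, and lower levels, 12.9 and 3.91 TPM at the median. Among transcripts of 3000 to 6000 bases the medians were -0.11 and -0.43.

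**Figure D4:**
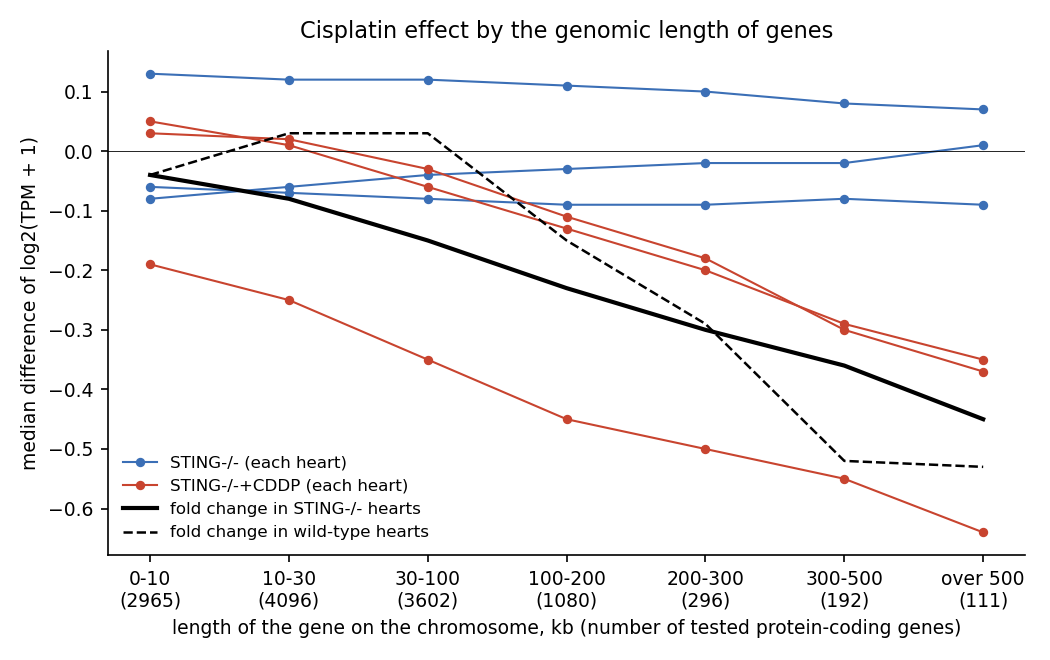
Median difference in log2(TPM + 1) from the mean of the STING-/- hearts for protein-coding genes grouped by their length on the chromosome (x axis, kb, number of genes in brackets), in each STING-/- heart (blue) and STING-/-+CDDP heart (red). The black lines give the median fold change with cisplatin in STING-/- (solid) and wild-type (dashed) hearts. The 3 treated hearts differ by -0.40, -0.40 and -0.45 between the longest and the shortest genes, the untreated hearts by -0.03, -0.06 and 0.08.

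The longest called gene was Fhit, a fragile-site gene of 1612 kb whose product hydrolyses diadenosine triphosphate. It was at 1.91, 2.33 and 4.44 TPM in the STING-/- hearts and listed at 0 in all 3 STING-/-+CDDP hearts (adjusted p = 0.00543). Wwox, another fragile-site gene, of 913 kb, was at 1.90, 2.78 and 2.07 TPM against 0.57, 0.72 and 0.45 TPM (fold change -1.03, SE 0.18, adjusted p = 0.0248). The other called genes over 500 kb were Slc9a9, an endosomal sodium-proton exchanger (561 kb, fold change -1.53, adjusted p = 0.00753), Atp8a2, a lipid flippase (559 kb, -1.38, adjusted p = 0.0213) and Dock2, a migration factor of white blood cells (557 kb, -1.33, adjusted p = 0.024). Dmd, the dystrophin gene of 2257 kb, was at 11.3, 13.1 and 15.6 TPM against 7.41, 7.37 and 6.00 TPM, apart in every heart but with an adjusted p of 0.136. Called genes were short as a whole, with a median of 16.6 kb for those called lower and 10.3 kb for those called higher against 24.3 kb for all protein-coding genes.

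Neither TNF and NF-kB targets nor the genes that the study followed in its heat map, a list chosen on these samples, held a called gene in STING-/- hearts, where 0.934% of all tested genes were called, so that lists of this size would hold few calls or none at that share. Of 41 tested targets 24 were higher and none was called, with a median of 0.10, or 0.21 relative to all genes, against 0.77 in wild-type hearts. The wild-type hearts did not share that value: from the STING-/- mean the CDDP hearts stood at 1.08, 0.041 and 0.676, the Saline hearts at 0.015, 0.124 and -0.357, the STING-/- hearts at -0.137, 0.31 and -0.237 and the STING-/-+CDDP hearts at 0.27, 0.229 and -0.273, so that the groups without STING overlapped and CDDP heart 2 lay within the STING-/-+CDDP range. Among the 111 tested genes of the KEGG TNF signaling pathway in the deposited annotation, 2 were called lower (Gm12250 and Gm5431, named after their values were seen) and none higher, with a median of -0.17 (relative -0.07) and 0.02 in wild-type hearts. Among the 41 targets 2 had an unadjusted p under 0.05. Of the 7 tested heat map genes 6 were higher, with a median of 0.30 (relative 0.41) against 1.84 in wild-type hearts, where 6 were called. Over them the CDDP hearts stood at 3.207, 0.802 and 1.461 from the STING-/- mean and the STING-/-+CDDP hearts at 0.483, 0.364 and -0.134. CDDP heart 1 also stood apart in neutrophil markers, at 4.498 against 0.763 and 0.679 in CDDP hearts 2 and 3. The 29 immediate-early genes, with a median of 0.27 (relative 0.37) against 1.07 in wild-type hearts, included no call either and 1 at an unadjusted p under 0.05. Junb, a subunit of AP-1, was at 20.2, 30.7 and 17.8 TPM in the STING-/- hearts and 41.8, 39.7 and 37.0 TPM in the STING-/-+CDDP hearts. Its groups did not overlap, with a fold change of 0.80 (SE 0.35, adjusted p = 0.342). The wild-type fold change was 2.46 and the interaction had an unadjusted p of 0.00558.

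The other heat map genes overlapped between groups. Fos was at 2.33, 5.51 and 2.69 TPM without and 3.88, 4.36 and 4.75 TPM with cisplatin, Atf4 at 54.3, 64.2 and 49.5 TPM against 62.6, 72.0 and 47.3 TPM, and Tnfaip3 at 1.56, 2.65 and 1.29 TPM against 3.08, 3.46 and 1.53 TPM. The chemokine Cxcl1 was at 4.22, 6.84 and 1.73 TPM against 6.72, 6.47 and 4.52 TPM. Cxcl2 did not exceed 1.22 TPM and Sele 1.89 TPM in any of the 6 hearts. Il6, at 0.24, 0.55 and 0.22 TPM against 0.07, 0.29 and 0.18 TPM, and Tnf itself, which is not on the heat map, at 0.19, 0.48 and 0.22 TPM against 0.45, 0.58 and 0.26 TPM, were below the filter (exact permutation p = 0.4 and 0.3). The second STING-/- heart was the highest control for each of these genes.

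The second STING-/- heart also stood apart in acute-phase genes. Saa3, a serum amyloid made in inflamed tissue, was at 6.84, 110 and 3.78 TPM in the STING-/- hearts and 65.5, 66.9 and 58.3 TPM in the STING-/-+CDDP hearts (fold change 2.00, SE 0.90, adjusted p = 0.359). None of the 27 acute-phase genes was called, their median was 0.20 (relative 0.30), and it was 1.45 in wild-type hearts. From the STING-/- mean the CDDP hearts stood at 1.23, 0.289 and 1.18, the STING-/- hearts at -0.275, 0.552 and -0.375 and the STING-/-+CDDP hearts at 0.512, 0.214 and -0.082, so that all 3 treated hearts lay within the range of the controls and CDDP heart 2 within that of the treated hearts. For Saa3 the difference between the genotypes had an unadjusted p of 0.00234. Across all genes the test of that difference called 1 gene (0.00724%), Rpl3-ps1, a processed pseudogene listed at 0 in all 6 STING-/- hearts, and 1615 genes had an unadjusted p under 0.05.

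Several single enzymes rose. Fah, which catalyses the last step of tyrosine breakdown, had the lowest adjusted p of all rises. It was at 11.02, 12.9 and 12.3 TPM in the STING-/- hearts and 46.9, 49.7 and 44.5 TPM in the STING-/-+CDDP hearts (fold change 1.88, SE 0.15, adjusted p = 0.000678). Gnmt, which spends the methyl donor S-adenosylmethionine on glycine, was at 1.77, 2.77 and 2.27 TPM against 10.0, 10.4 and 12.8 TPM (fold change 1.89, SE 0.23, adjusted p = 0.00543). Values of each gene were close together in the controls, and every treated heart was at least 2 times the highest control.

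Dcxr, a reductase of dicarbonyls and L-xylulose, was at 9.62, 9.31 and 7.91 TPM without and 31.1, 26.4 and 25.3 TPM with cisplatin (fold change 1.52, SE 0.15, adjusted p = 0.00145). Hsd11b1, which regenerates active glucocorticoid inside cells, was at 22.2, 17.1 and 14.01 TPM against 57.3, 49.5 and 53.1 TPM (fold change 1.55, SE 0.20, adjusted p = 0.00753). Phyhd1, a 2-oxoglutarate dioxygenase, was at 49.6, 48.5 and 54.3 TPM against 123, 137 and 146 TPM (fold change 1.39, SE 0.18, adjusted p = 0.00753). Khk, the fructose kinase, and Pxmp2, a peroxisomal membrane protein, were called with fold changes of 0.90 and 0.79. Of 28 glucocorticoid-induced genes 21 were higher, with a median of 0.42 (relative 0.52) against 1.27 in wild-type hearts, and Cdkn1a was the 1 called. From the STING-/- mean the STING-/-+CDDP hearts stood at 0.658, 0.44 and 0.158, the STING-/- hearts at 0.011, 0.155 and -0.176, the CDDP hearts at 0.25, 0.886 and 1.089 and the Saline hearts at -0.978, 0.068 and -0.246. CDDP heart 1 lay within the STING-/-+CDDP range, and Saline heart 1 stood below the other hearts of its group.

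Genes that PPAR drives in fasting were mostly higher. Of 23 tested, 21 were higher with a median of 0.26, or 0.36 relative to all genes, while the median in wild-type hearts was -0.02. From the STING-/- mean the STING-/-+CDDP hearts stood at 0.137, 0.275 and 0.341 and the STING-/- hearts at -0.131, -0.047 and 0.163, so that treated heart 1 lay within the range of the controls. The CDDP hearts stood at -0.54, 0.235 and -0.351, and CDDP heart 2 lay within the STING-/-+CDDP range. Of 66 tested genes of the KEGG PPAR signaling pathway 37 were higher and 2 called higher, with a median of 0.04 (relative 0.14) and 0.07 in wild-type hearts. Ehhadh, a bifunctional enzyme of peroxisomal beta-oxidation, was the 1 called, at 3.98, 4.13 and 5 TPM in the STING-/- hearts and 12.5, 10.96 and 14.3 TPM in the STING-/-+CDDP hearts (fold change 1.34, SE 0.21, adjusted p = 0.0203). In wild-type hearts it changed by 0.31 (adjusted p = 0.326), and the difference between genotypes had an unadjusted p of 0.00522. Pdk4, which blocks the entry of pyruvate into the citric acid cycle, was at 86.8, 128 and 277 TPM against 510, 461 and 821 TPM, apart in every heart with an adjusted p of 0.0967 (fold change 1.98, SE 0.50). Acot1, a thioesterase of fatty acyl-CoA, was apart as well, with an adjusted p of 0.0707. Of 33 fatty acid oxidation genes 27 were higher, with a median of 0.12 (relative 0.22) and no call, and over the list treated heart 1 lay within the range of the controls. The 93 nuclear subunits of the respiratory chain had a median of -0.02 (relative 0.09) and no call.

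Sqstm1, Map1lc3b, Psmd4 and Des rose. Sqstm1, the autophagy receptor p62, was at 204, 201 and 176 TPM in the STING-/- hearts and 380, 359 and 371 TPM in the STING-/-+CDDP hearts (fold change 0.93, SE 0.19, adjusted p = 0.0415). Map1lc3b, whose product LC3B coats the autophagosome, was at 115, 137 and 120 TPM against 232, 219 and 264 TPM (fold change 0.94, SE 0.15, adjusted p = 0.0217). Psmd4, the ubiquitin receptor of the proteasome, was at 84.3, 90.6 and 76.3 TPM against 146, 138 and 130 TPM (fold change 0.72, SE 0.13, adjusted p = 0.0267). Des, which encodes the intermediate filament desmin, was at 511, 560 and 628 TPM against 786, 954 and 913 TPM (fold change 0.64, SE 0.12, adjusted p = 0.0362). The wild-type fold changes of these 4 genes were 1.72, 1.49, 1.26 and 1.15, with unadjusted interaction p-values of 0.0123, 0.0243, 0.0111 and 0.0143.

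Slc8a1 and Gja1 fell. Slc8a1, the sodium-calcium exchanger, was at 38.3, 45.8 and 62.3 TPM without and 21.1, 22.99 and 20.4 TPM with cisplatin (fold change -1.12, SE 0.22, adjusted p = 0.0391). Gja1, the gap junction protein connexin 43, was at 87.2, 119 and 97.5 TPM against 47.7, 50.1 and 44.8 TPM (fold change -1.06, SE 0.19, adjusted p = 0.0286). Each was the 1 gene called in its list of 25, of calcium handling (median -0.47, relative -0.36) and of ion channels and conduction (median -0.43, relative -0.32). Cacng6, a calcium channel subunit, was called higher, at 0.73, 0.15 and 0.33 TPM against 2.68, 2.90 and 3.20 TPM (fold change 1.5, SE 0.29, adjusted p = 0.0365).

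Of 25 tested sarcomere genes 19 were lower, Des was the 1 called, and the median was -0.17 (relative -0.07). Of 18 fetal and hypertrophic genes 15 were lower and none was called, with a median of -1.01 (relative -0.90). The list holds atrial genes such as Nppa and Myl7, and over it treated heart 1 lay within the range of the controls. Myh7, the slow myosin heavy chain of the fetal mouse heart, went against most of that list, at 63.0, 43.1 and 45.0 TPM without and 118, 390 and 628 TPM with cisplatin (fold change 2.61, SE 0.59, adjusted p = 0.067). Actc1, cardiac actin, was at 4254, 3444 and 8112 TPM against 1282, 2150 and 1370 TPM (fold change -1.66, SE 0.53, adjusted p = 0.183). The treated heart with the highest atrial transcripts, the first, had the lowest Myh7, and the 2 with little atrial transcript had the highest. Bmp10, a growth factor of the atrium, was at 31.8, 18.1 and 114 TPM against 0.02, 0 and 0.01 TPM, low in the first treated heart too (adjusted p = 0.158).

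Tfrc, the transferrin receptor by which cells import iron, gave the largest fall of any called gene. It was at 14.6, 20.2 and 43.6 TPM in the STING-/- hearts and 1.89, 2.08 and 1.70 TPM in the STING-/-+CDDP hearts (fold change -3.09, SE 0.52, adjusted p = 0.024). The treated hearts lay within 0.4 TPM of each other and the controls were spread, with heart 3 the highest. Alas1, the first enzyme of haem synthesis, was at 229, 283 and 399 TPM against 74.4, 129 and 84.3 TPM (fold change -1.66, SE 0.27, adjusted p = 0.0232). Both were called lower in wild-type hearts too (-2.90 and -1.31), with interaction p-values of 0.802 and 0.387. Of the 24 tested genes of iron handling, Tfrc was the 1 called.

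Collagens were lower without a call. All 28 tested collagens were lower, 20 without overlap and 16 at an unadjusted p under 0.05, with a median of -0.76 (relative -0.66) against -1.13 in wild-type hearts. Col3a1, the collagen of soft connective tissue, was at 99.99, 159 and 68.7 TPM without and 31.5, 40.9 and 21.2 TPM with cisplatin (adjusted p = 0.14). Endothelial markers had a median of -0.14 (relative -0.03) over 15 genes and no gene whose groups did not overlap. Fibroblast markers had a median of -0.47 (relative -0.37) and smooth muscle and pericyte markers of -0.67 (relative -0.57), with no call, and over both lists the groups of hearts overlapped. Of 11 tested adipocyte markers 8 were lower and 5 did not overlap, with a median of -0.79 (relative -0.68) against 0.46 in wild-type hearts and no call. Over them the treated hearts stood at -0.921, -0.589 and -0.564 from the STING-/- mean and the controls at 0.327, 0.259 and -0.657. Of 8 mesothelium and epicardium markers 6 were lower, none was called and none was without overlap, with a median of -0.63 (relative -0.52) against 0.14, the treated hearts at 0.327, -1.777 and -0.466 and the controls at -0.331, 0.602 and -0.518. In both lists 2 of the 3 treated hearts lay within the range of the controls. The part of these tissues in the lower collagen and atrial values was not tested.

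Every gene called in STING-/- hearts moved in the same direction in wild-type hearts. The wild-type and STING-/- comparisons share no heart, but both came from the same model of all 12 hearts. The shared estimate of the spread enters both sets of calls, which are therefore not independent. Among all tested genes, 1659 had groups without overlap in each genotype, and 58 of these moved in opposite directions. A shared direction was thus common among such genes in general. Of the 129 genes, 116 were also called in the wild-type comparison, in which 2610 genes (18.9%) were called, and the groups of wild-type hearts did not overlap for 125, as they did not for 4418 of all tested genes (32%). The 13 others included Retnla, Ms4a4c, Ccl8, Ehhadh, Oas3 and Slc8a1. The interaction had an unadjusted p under 0.05 for 25 of the 129.

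**Figure D5:**
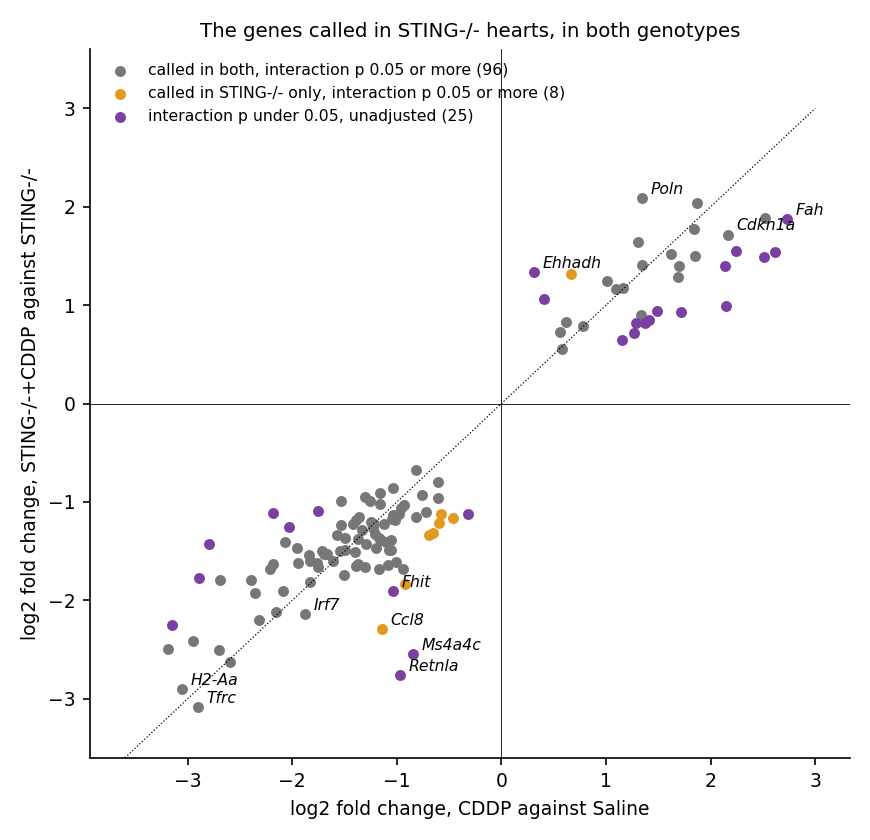
Log2 fold change with cisplatin of the 129 genes called in STING-/- hearts, in wild-type hearts (x axis) and in STING-/- hearts (y axis), coloured by the call in wild-type hearts and by the unadjusted interaction p. All points have the same sign on both axes. Retnla and Ms4a4c lie below the dotted line of equal change, where the fall is larger in STING-/- hearts, and Fah lies where the rise is larger in wild-type hearts.

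Among genes picked for the lowest interaction p, Foxs1, a forkhead factor of perivascular cells, had opposite directions in the genotypes, without overlap of groups in each. It was at 1.68, 2.07 and 1.97 TPM in the STING-/- hearts and 3.36, 4.44 and 2.99 TPM in the STING-/-+CDDP hearts (fold change 0.65, SE 0.21, adjusted p = 0.189), and its fold change in wild-type hearts was -1.47 (adjusted p = 0.00153). The fold changes of 0610012G03Rik also had opposite signs, 0.39 in STING-/- hearts, where its groups overlapped, and -1.31 in wild-type hearts. Decr2, 0610012G03Rik, Tomm40l and Sdhaf4 were called lower in wild-type hearts and Mtrr, Mphosph10, Fosl2, Ms4a8a and Ahcy higher, and none of the 9 was called in STING-/- hearts. Of these, Ahcy, which clears S-adenosylhomocysteine, came closest to a call in STING-/- hearts, at 18.0, 23.4 and 17.5 TPM against 36.9, 30.8 and 34.2 TPM (fold change 0.77, SE 0.17, adjusted p = 0.0589).

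A few called features are uncertain in identity. Gm16534, a processed transcript at chr2:32050086-32064911 on GRCm38, was at 8.98, 7.37 and 9.56 TPM without and 1.44, 2.01 and 1.21 TPM with cisplatin (fold change -1.92, SE 0.17, adjusted p = 0.000678). Gm12250, a locus beside interferon-inducible GTPase genes, fell by 1.90 on the log2 scale and Gm10053, a copy of a cytochrome c gene, by 0.67. Gm42047, a non-coding RNA, and the assembled loci MSTRG.2240 and MSTRG.12563, which have no position here, rose by 1.77, 1.54 and 1.49. Apart from these uncertain features, Spata24, a testis gene, and Lgals4, a galectin of the gut, rose too. Spata24 went from 1.25, 0.37 and 0.58 TPM to 4.61, 5.47 and 8.20 TPM (fold change 2.03, SE 0.30, adjusted p = 0.0116). Lgals4 went from 11.6, 12.9 and 12.5 TPM to 47.7, 31.0 and 44.8 TPM (fold change 1.64, SE 0.24, adjusted p = 0.0116).

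In absolute terms the widest differences in mean TPM belonged to mitochondrial genes, their nuclear copies and atrial or actin transcripts, none of which was called. Lower with cisplatin were mt-Atp8, Gm10222, mt-Nd2, Actc1 and Nppa, and higher were mt-Co3, mt-Co1, mt-Nd5, Gm28437 and Gm29216, with adjusted p-values from 0.183 to 0.759. Gm10222, Gm28437 and Gm29216 are copies of mitochondrial genes on chromosome 1, and their values cannot be told apart from those of the mitochondrial originals.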

How the data were processed

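RNA from 12 whole hearts, 3 in each of 4 groups taken from the sample labels, was sequenced, and the authors deposited 1 table of TPM for 55885 genes, of which 55227 had an identifier of GENCODE M21 and 398 were assembled loci named MSTRG. The submitters' processing notes name fastp, HISAT, RSEM and GRCm38.p5, without versions of the tools. The table's 4 group mean columns were left out. No read counts were used, so no interval for counting error could be given.

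Genes with TPM of at least 1 in at least 3 of 12 hearts were tested (13815) on log2(TPM + 1) with limma 3.58.1 in R 4.3.3 (trend and empirical Bayes moderation, 8 residual degrees of freedom, all 4 groups in 1 fit), and p-values were adjusted by the Benjamini-Hochberg method over all tested genes. The interaction was the cisplatin effect in STING-/- minus that in wild-type hearts. The script was tested on simulated data. Lists were described by counts and medians, without a set test. Tables and figures were made with Python 3.11.15 and matplotlib 3.10.9. Promoters came from RefSeq (GRCm38.p6).

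Members, gene lists and length classes were chosen with earlier results of these data known. Genes were named by rule: the 12 largest called rises and falls among protein-coding genes, the 3 largest among uncertain loci, up to 4 called genes of a list or 2 abundant ones, the 5 most abundant called genes, the 5 of lowest interaction p and the 5 of largest TPM difference in each direction, Sting1, the heat map genes and markers of cell types whose median moved by over 0.5, the last given mostly as counts. Acot1, Bax, Bmp10, Bst2, Clec10a, Cybb, Dbp, Dmd, Dock2, Atp8a2, Ifnar1, Ifnar2, Ifnb1, Ifna4, Ifng, Irf9, Isg15, Khk, Mdm2, Myh6, Myh7, Nr1d1, Oas3, Pdk4, Phlda3, Pxmp2, Saa3, Slc9a9, Tlr7, Tnf and Wwox were chosen after their values were seen. Some genes that the rule names are not reported here. Alternatives were another pseudocount (0.1), 3 other filters, 4 other scalings, the compared groups alone, no trend, arrayWeights, a fold threshold, the replicate block and each heart left out.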

Additional observations from a re-analysis of the deposited data

Results flagged for a closer look

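Foxs1 had opposite directions in the 2 genotypes, 1 of 58 tested genes that did so without overlap of groups in each genotype. Its log2 fold change with cisplatin was 0.65 in STING-/- hearts and -1.47 in wild-type hearts, and the difference of 2.12 had an unadjusted limma p-value of 1.6e-05 that did not pass the adjustment over all genes. Rpl3-ps1, a processed pseudogene of a ribosomal protein gene, had an interaction of 6.88 and passed it. The Saline hearts had 104, 173 and 89.2 TPM, and it was listed at 0 in the 9 others, including all 6 STING-/- hearts, so that no fold change within STING-/- hearts exists, and its reads may be shared with the parent gene.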

How the results depend on the processing

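Sequencing depth is not known from TPM, so the counting error of low genes could not be given. The 129 genes called in STING-/- hearts were 46 without a filter on low values, 204 with the compared groups alone, 250 with median of ratios, 297 with quantile normalization, 230 without the 10 most abundant genes and 613 with arrayWeights, and 104 with a pseudocount of 0.1. Wild-type calls (2610) were 822 with the compared groups alone and 1106 at a fold change of at least 1 on the log2 scale. The interaction (1 gene) had 0 with the filter in the 6 STING-/- hearts, 3 with median of ratios, 3 with quantile normalization and 2 with arrayWeights. Interferon-stimulated genes called lower (16) were 4 without a filter and 33 with arrayWeights. MHC class II genes (5) were 3 without a filter. Macrophage markers (4) were 0 without a filter, 2 with a filter at TPM 5 and 8 with arrayWeights. Targets of p53 called higher (2) were 1 without a filter, 1 with a filter at TPM 5, 1 with the compared groups alone, 6 with median of ratios, 4 without mitochondrially encoded genes, 8 with quantile normalization, 4 without the 10 most abundant genes and 10 with arrayWeights. The cause of these moves was not tested.

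Leaving out 1 heart at a time, which leaves fewer hearts, gave 15 to 203 calls in STING-/- hearts, 1241 to 2548 in wild-type hearts, 1 to 15 for the interaction, 2 to 22 interferon-stimulated genes, 1 to 6 MHC class II genes, 0 to 6 macrophage markers and 0 to 4 p53 targets. For the fold changes of 74 named genes over 25 settings, 1438 kept direction and side of the threshold, 378 kept direction and passed out of the call, 24 passed into it, and none changed direction. The step from the shortest to the longest protein-coding genes was -0.57 to -0.38 over all settings. The replicate numbers do not pair the hearts, since same-numbered STING-/- and STING-/-+CDDP hearts had correlations of -0.072, 0.021 and 0.157. With the replicate block 114 genes were called, 97 of them among the 129, and the block moved no count of calls by over 1.5 times.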

Other observations

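Ribosomal protein genes of the cytosol were mostly higher. Of 83 tested cytosolic ribosomal protein genes 75 were higher with cisplatin in STING-/- hearts, with a median of 0.16 (0.27 relative to all genes) and no call, against a median of 0.46 and 47 calls in wild-type hearts. The groups did not overlap for 9 of the 83, a share below the 24.2% of all tested genes. From the STING-/- mean the treated hearts stood at 0.244, 0.255 and 0.002 and the controls at -0.002, 0.171 and -0.167. Treated heart 3 thus lay within the range of the controls. Of 78 mitochondrial ribosomal protein genes 59 were lower, with a median of -0.13, which was -0.03 relative to all genes, and treated heart 2 lay within the range of the controls. Mrps22, a subunit of the small mitochondrial ribosome, was the 1 called, at 22.2, 20.9 and 23.2 TPM in the STING-/- hearts and 13.96, 11.6 and 11.5 TPM in the STING-/-+CDDP hearts (fold change -0.79, SE 0.13, adjusted p = 0.0232). With median of ratios scaling the median was 0.3 for the cytosolic and 0.0 for the mitochondrial list.

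Clock output genes were apart without a call. Dbp, an output factor of the circadian clock, was at 115, 95.8 and 113 TPM without and 43.3, 18.6 and 20.6 TPM with cisplatin (fold change -2.03, SE 0.59, adjusted p = 0.146). Nr1d1, the clock repressor REV-ERB alpha, was at 49.9, 83.5 and 61.5 TPM against 29.2, 26.5 and 18.9 TPM (fold change -1.34, SE 0.38, adjusted p = 0.131). The hour at which hearts were taken was not given in the sources used here.

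Erythroid transcripts varied among hearts of the same group. Hbb-bt, an adult beta globin, was at 78.2, 81.8 and 14.8 TPM in the STING-/- hearts and 5.11, 4.89 and 17.04 TPM in the STING-/-+CDDP hearts (fold change -2.44, SE 0.79, adjusted p = 0.188), so that the third heart of each group lay close to the other. Of 10 tested erythroid markers 9 were lower with a median of -0.84 (-0.74 relative to all genes) and none was called, and treated heart 3 lay within the range of the controls.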
